A study of Canis lupus familiaris with 31 samples.

Results

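Liver X receptors are nuclear receptors that bind oxysterols, the oxidized derivatives of cholesterol, and switch on genes that move cholesterol out of cells. Without a ligand, the receptors sit on DNA with corepressors that keep those genes quiet, and with a ligand they drive the export pumps of macrophages, the degradation of the LDL receptor and the remodelling of membrane phospholipids. Monocytes, the circulating precursors of many macrophages, use the same pathway, and whole blood RNA holds their transcripts beside those of other blood cells. The genes described here were 10 members of this pathway, chosen by symbol from the 32704 rows of a table of raw RNA-seq counts. They were the receptors NR1H2 and NR1H3, the corepressor NCOR1, the lipid pumps ABCA1, ABCG1 and ABCA7, and MYLIP, LPCAT3, APOE and CH25H. Each symbol named 1 row, and 8 of the 10 were counted deeply enough to be tested among 13918 genes, APOE and CH25H being the exceptions.

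The counts came from whole blood of 31 client-owned, purebred Miniature Schnauzers that were older than 7 years. The 13 cases had HTG, raised triglycerides in blood, with a fasting serum triglyceride concentration above the study's cut-off, and the 18 controls had a normal one. Cases had been screened for endocrine and kidney disease, dogs on lipid-altering drugs were not enrolled, and diet was not standardized. Of the cases 8 were male and 5 female, and of the controls 10 were male and 8 female. Males were castrated and nearly all females spayed, no dog carried an engineered allele or received a treatment for the study, and each library was 1 dog. Serum cholesterol was known for 12 cases and 15 controls, and cholesterol was used within each group, since it also differs between them.

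Total counts per dog ran from 14524659 to 41533599, with a median of 20588919 in cases and 19679367 in controls. Levels are given as CPM, counts scaled to a common library size, which are not divided by gene length and so compare dogs for 1 gene and not genes with each other. The dogs fell into a high and a low side by the mean level of 330 rows named after small RNA families. The high side held 5 cases and 5 controls, all at or above a mean of 1.82 log2 CPM, and the low side held 8 cases and 13 controls, all at or below 1.46. An earlier pilot extraction and library preparation covered the same numbers of cases and controls, but the sources used here do not name its dogs, so the split is called by what was measured. Values within the sides, and scores of marker genes of 8 blood cell types, are given beside the results they move with. In whole blood, fewer cells of a type and less RNA per cell cannot be told apart.

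Between HTG cases and controls, none of the 8 tested members passed an adjusted P of 0.05, where 0.0359% of all genes did, 5 of 13918. The test was edgeR's quasi-likelihood test fitted across all genes, with Benjamini-Hochberg adjustment, on the log2 scale. Without adjustment, 1 of the 8 had P under 0.05 and was lower in cases, beside 9.81% of all genes in either direction and 4.76% lower. Of the members 2 were higher in cases and 6 lower, beside 45.5% of all genes higher, with a median log2 difference of -0.046, beside -0.016 over all genes tested. The count over all genes ran from 0 to 84 across the alternatives, the highest with DESeq2. The DESeq2 and limma-voom fits also called 0 members, with 1 and 0 of them below an unadjusted P of 0.05. The plot of CPM by dog shows the overlap of the groups for every member.

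**Figure D1:**
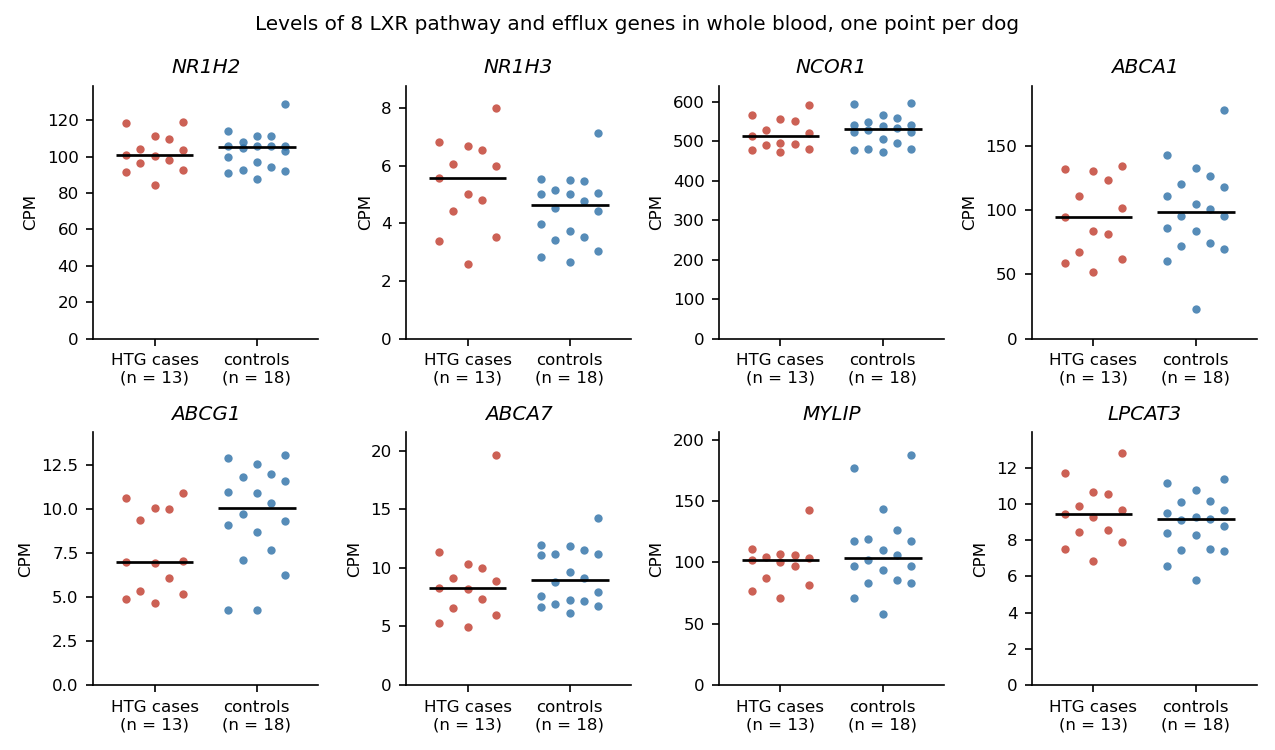
CPM of the 8 tested members (vertical axes, linear and starting at 0) in 13 HTG cases and 18 controls, with 1 point per dog and a bar at the median of the group. The points of cases and controls overlap in every panel, NCOR1 and NR1H2 lie in narrow bands, and the lowest ABCA1 point, at 23.2 CPM, is a control.

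The receptors were both present in blood. NR1H2 (ENSCAFG00000003338) encodes LXR beta, the form found in nearly every tissue. Its level was 84.3 CPM in the lowest case, 101 in the median case and 119 in the highest. In controls, the lowest, median and highest values were 87.8, 105 and 129 CPM. Cases and controls thus covered nearly the same range, and the highest dog had only 1.53 times the level of the lowest. The log2 difference, cases over controls, was -0.014 with a standard error (SE) of 0.056 and a 95% interval of -0.13 to 0.10 (adjusted P = 0.957, edgeR). That interval bounds the fold between 0.915 and 1.07.

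NR1H3 (ENSCAFG00000008824) encodes LXR alpha, the form enriched in liver, gut, fat and macrophages. It lay at 2.57, 5.58 and 8.01 CPM in the lowest, median and highest case. In controls the corresponding values were 2.65, 4.65 and 7.15 CPM. The groups overlapped over nearly their whole range, although 9 of 13 cases stood above the control median. The log2 difference was 0.25 (SE 0.15, 95% interval -0.051 to 0.55, P = 0.101, adjusted P = 0.611). Within the 21 dogs of the low side it was 0.40 (P = 0.021, adjusted P = 0.401), and within the 10 dogs of the high side it was -0.065 (P = 0.828, adjusted P = 1.00). The difference between those values was not itself past a threshold (-0.46, SE 0.32, P = 0.152, adjusted P = 0.970).

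NCOR1 (ENSCAFG00000018040), a corepressor that holds histone deacetylase activity at unliganded nuclear receptors, was the steadiest member. Its level in cases was 472, 515 and 591 CPM at the lowest, the median and the highest. Controls showed 472, 532 and 598 CPM. The highest dog had 1.27 times the level of the lowest, and 0.28% of the 13918 genes tested had a smaller standard deviation of log2 CPM. For NR1H2 that percentile was 2.59, whereas ABCA1 was at 71.6. The log2 difference of NCOR1 was -0.027 (SE 0.050, 95% interval -0.13 to 0.075, adjusted P = 0.904), so that a fold outside 0.915 to 1.05 lay beyond the interval.

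Among the pumps, ABCA1 (ENSCAFG00000002727) loads cholesterol onto lipid-poor apolipoprotein A-I and is the classic LXR target. Cases ranged from 52.04 to 134 CPM around a median of 94.8. Controls ranged more widely, from 23.2 to 177 CPM, around a median of 98.2. Both the lowest dog, control 09, and the highest dog, control 16, were controls, and the 13 cases all lay between them. Cases differed from controls by a log2 value of -0.074 (SE 0.19, 95% interval -0.45 to 0.31, adjusted P = 0.934). Without control 09 it was -0.14 (SE 0.16, adjusted P = 0.798).

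ABCG1 (ENSCAFG00000010285) passes cholesterol on to mature HDL particles and was the member with the smallest P in this comparison. Its lowest, median and highest levels were 4.67, 7.00 and 10.9 CPM in cases and 4.25, 10.0 and 13.1 CPM in controls. 10 of 13 cases stood below the control median, while control 09 was again the lowest dog. The log2 difference was -0.34 (SE 0.16, 95% interval -0.68 to -0.012, P = 0.043), which did not pass adjustment (adjusted P = 0.490), and the P ranked 1214 among 13918. Over 20 alternative fits it ran from -0.39 to -0.16, with an adjusted P between 0.326 and 1.00, and 7 of the 20 kept an unadjusted P under 0.05. The value without control 09 was the lower end of that range (P = 0.016). The value with the neutrophil marker score as a covariate was the other end (-0.16, SE 0.16, P = 0.332).

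That covariate moved with the gene and, before adjustment only, with the group. The score is the mean centred log2 CPM of the 6 neutrophil markers found, out of 8 listed. It was 0.39 log2 units higher in cases (two-sided permutation P = 0.037, adjusted over 8 scores P = 0.148), with summed marker levels of 4893 to 9074 CPM in cases and 3212 to 15097 CPM in controls. Its markers did not shift alike. Medians in cases and controls were 253.9 and 68.9 CPM for MMP9 and 484.5 and 336.5 CPM for S100A8. For S100A12 they were 1578 and 1137 CPM. They lay closer for CSF3R (3700 and 3604 CPM), CXCR2 (228.1 and 222.8 CPM) and MGAM (269.9 and 262.9 CPM). Whether this score tracks the number of neutrophils was not tested. Over the 31 dogs, ABCG1 fell with that score (r = -0.56, rho = -0.52, permutation P = 0.0012) and rose with the score of 8 T cell markers (r = 0.60, rho = 0.65, permutation P = 0.00041). Adjusted over the 64 relations of members with scores, P was 0.026 and 0.013. Leaving out the 2 dogs farthest from the median score gave r = -0.46 and r = 0.55. The T cell score was 0.21 lower in cases (permutation P = 0.112), with summed levels of 245 to 637 CPM in cases and 313 to 736 CPM in controls. With the score of the 7 reticulocyte and erythroid markers found, r was -0.46 and rho -0.40 (permutation P = 0.0095, adjusted P = 0.087), and -0.41 without the 2 farthest dogs. That score was 0.71 higher in cases (permutation P = 0.097), with summed levels of 875 to 17499 CPM in cases and 724 to 28152 CPM in controls, and the ABCG1 difference with it as a covariate was -0.24 (P = 0.153). None of the markers found was at 0 in every dog. The part of T cells in the ABCG1 difference was not tested.

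ABCA7 (ENSCAFG00000019617), a relative of ABCA1 that moves phospholipid and takes part in phagocytosis, differed little between the groups as wholes, while its median was higher in cases on one side of the split and lower on the other, with overlap on both. Over all dogs its lowest, median and highest levels were 4.96, 8.25 and 19.6 CPM in cases and 6.15, 8.99 and 14.3 CPM in controls. On the log2 scale the difference was -0.065 (SE 0.16, 95% interval -0.39 to 0.26, adjusted P = 0.931). On the high side, the 5 cases had 8.19, 9.96, 10.4, 11.4 and 19.6 CPM. The 5 controls there had 6.67, 7.19, 7.57, 7.94 and 8.82 CPM. Thus 4 of the 5 cases exceeded every control of that side, with a log2 difference of 0.63 (SE 0.23, P = 0.017, adjusted P = 1.00).

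On the low side the order was the opposite. The 8 cases lay at 4.96, 6.96 and 9.11 CPM for the lowest, median and highest, and the 13 controls at 6.15, 11.1 and 14.3 CPM. The log2 difference was -0.49 (SE 0.16, P = 0.0061, adjusted P = 0.307). A single model with the interaction of group and side gave a difference between the effects of 1.13 (SE 0.28, 95% interval 0.56 to 1.70, P = 0.00035). That P ranked 6 among 13918 genes, yet it did not pass adjustment over them (adjusted P = 0.805), and 4.35% of all genes had an unadjusted P under 0.05 in that test and 0% passed. An exact permutation test within each side gave P = 0.016 and P = 0.010. Without case 07, the dog at 19.6 CPM, the difference was 0.87 (SE 0.26, P = 0.0025, adjusted P = 1.00). The test was chosen after the values were seen. The r of ABCA7 with the platelet score, which was higher in cases, was -0.62 in the 21 low-side dogs, -0.056 in the 10 high-side dogs and -0.30 in all dogs (permutation P = 0.098). With the B cell score it was -0.19, 0.66 and 0.13 in the same order, with the neutrophil score -0.048, 0.58 and 0.15, and with the T cell score 0.12, -0.54 and -0.15 (permutation P over all dogs = 0.501, 0.424 and 0.417). With the monocyte score it was -0.44 on the low side, -0.14 on the high side and -0.32 in all dogs (permutation P = 0.078, rho = -0.39 with P = 0.030, adjusted P over the 64 relations 0.277). The part of these cell types was not tested.

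**Figure D2:**
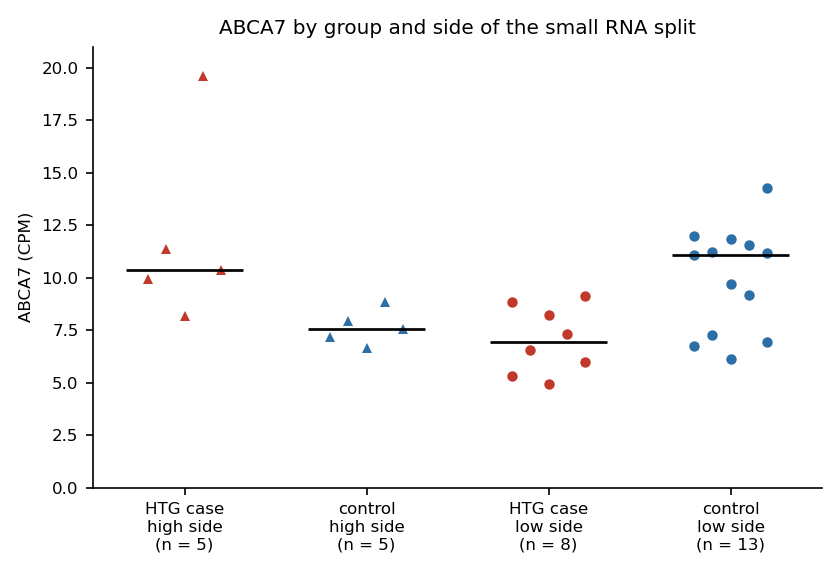
ABCA7 level in CPM (vertical axis, from 0) by group and by side of the split on small RNA counts, with 1 point per dog and a bar at the median. Cases stand above controls on the high side, at medians of 10.4 and 7.57 CPM, and below them on the low side, at 6.96 and 11.1 CPM.

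MYLIP (ENSCAFG00000009903) encodes the ubiquitin ligase that sends the LDL receptor to lysosomes, so that cholesterol-loaded cells take up less. It lay at 71.0, 102 and 142 CPM in the lowest, median and highest case. The control values were 58.0, 104 and 188 CPM. Cases fell inside the spread of controls, whose extremes were again control 09 and control 16. The fitted log2 difference came to -0.14 (SE 0.13, 95% interval -0.41 to 0.12, adjusted P = 0.763). A fit that held the score of platelet markers fixed gave -0.33 (SE 0.13, P = 0.013, adjusted P = 0.783), and ABCA1 was then at -0.35 (SE 0.19, P = 0.081). Over 20 alternative fits MYLIP ran from -0.33 to -0.087 and ABCA1 from -0.35 to 0.052. An unadjusted P under 0.05 was found in 1 of the 20 for MYLIP and in 0 for ABCA1. The score of the 7 platelet markers found was 0.61 higher in cases (permutation P = 0.0062, adjusted over 8 scores P = 0.0498), with summed levels of 756 to 3804 CPM in cases and 521 to 4159 CPM in controls.

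LPCAT3 (ENSCAFG00000014412) places polyunsaturated chains into membrane phospholipids. Its levels were 6.85, 9.46 and 12.8 CPM in cases and 5.81, 9.15 and 11.4 CPM in controls, at the lowest, median and highest. 8 of 13 cases stood above the control median, and the groups overlapped almost fully. The log2 difference was 0.093 (SE 0.096, 95% interval -0.10 to 0.29, adjusted P = 0.801).

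APOE and CH25H did not reach the count level required for testing. APOE (ENSCAFG00000004617), the apolipoprotein that macrophages release to carry exported cholesterol, had 143 counts in all. It had 0 counts in 4 cases and 2 controls, and at most 17 in a case and 16 in a control. The mean level was 0.23 CPM in cases (SD 0.25, n = 13) and 0.16 in controls (SD 0.15, n = 18). A difference between those means was not detected (two-sided permutation P = 0.325), at few counts and a spread between dogs about as large as the means. CH25H (ENSCAFG00000015717), the enzyme that makes the LXR ligand 25-hydroxycholesterol, had 3 counts in control 07 and 0 counts in the other 30 dogs. A count of 0 allows up to 3 counts, or 0.069 to 0.39 CPM depending on the dog's depth, for counting error only.

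**Figure D3:**
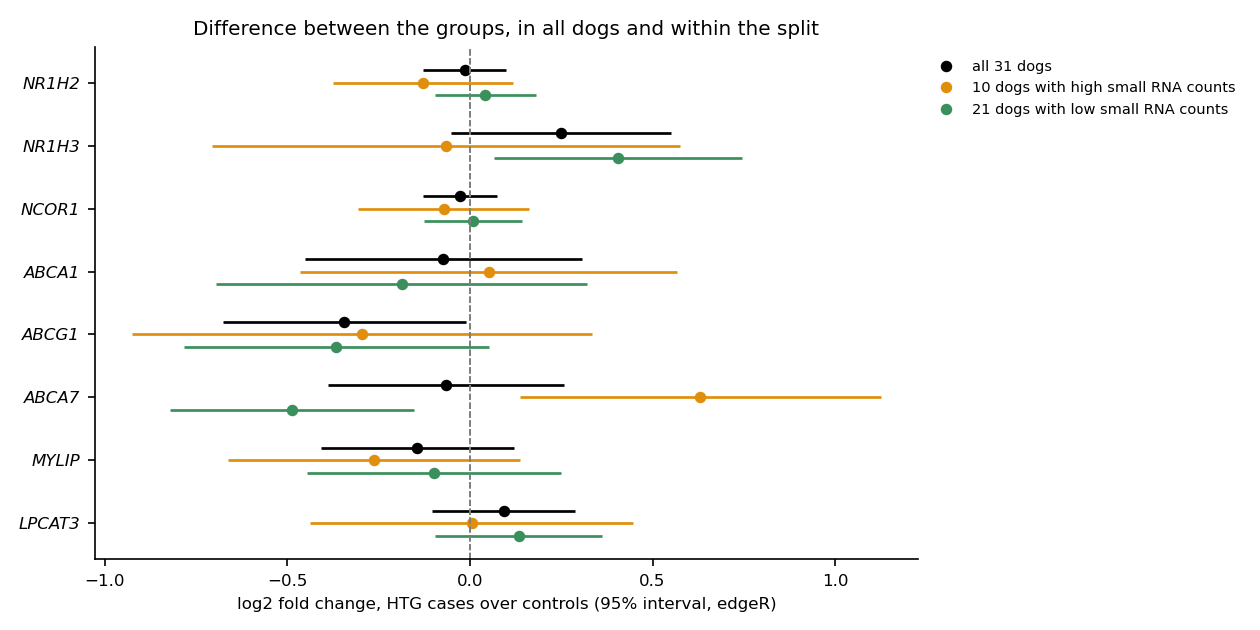
Log2 fold change of HTG cases over controls (horizontal axis) with its 95% interval for the 8 tested members, from edgeR, in all 31 dogs (black), in the 10 dogs with high small RNA counts (orange) and in the 21 with low counts (green). Only the intervals of ABCG1 in all dogs, ABCA7 on each side and NR1H3 on the low side leave out 0, and none of these passed adjustment over all genes.

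The members did not move as 1 block across dogs. Among the 28 pairs of tested members, Pearson's r of log2 CPM ran from -0.43 to 0.81 with a median of 0.076, and it was above 0 in 18 pairs. A permutation P under 0.05 was found for 6 pairs. That number was 5 after the means of group and split were removed and 7 within the 21 dogs of the low side. The same counts were not taken over pairs of other genes, so they are not read as a trait of the members.

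ABCA1 and MYLIP were the pair that varied together. Control 09 was lowest for both, at 23.2 and 58.0 CPM. Control 16 was highest for both, at 177 and 188 CPM. Over the 31 dogs r was 0.81 and rho was 0.85 (permutation P = 1e-05, the smallest that 100000 permutations can give). Of the 13917 other genes tested, MYLIP was the one most alike to ABCA1 and ABCA1 the one most alike to MYLIP.

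The relation was present in each group taken alone, with r = 0.83 in the 13 cases and 0.81 in the 18 controls. It was 0.87 on the low side and 0.60 on the high side, where 10 dogs gave a permutation P of 0.067. Without control 16 and control 09, which lay farthest from the median, r was 0.74, and after the means of group and split were removed it was 0.81. With the platelet score r was 0.45 for ABCA1 and 0.40 for MYLIP (permutation P = 0.012 and 0.025), which did not pass adjustment over the 64 relations of members with scores (adjusted P = 0.094 and 0.176). Those values were 0.31 and 0.28 without the 2 dogs farthest from the median score. With the eosinophil and basophil score r was 0.38 for ABCA1 (permutation P = 0.032, adjusted P = 0.176) and 0.080 for MYLIP (permutation P = 0.671). Without the 2 farthest dogs these were 0.43 and 0.15. The part of platelets and of these cells in the joint variation was not tested.

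**Figure D4:**
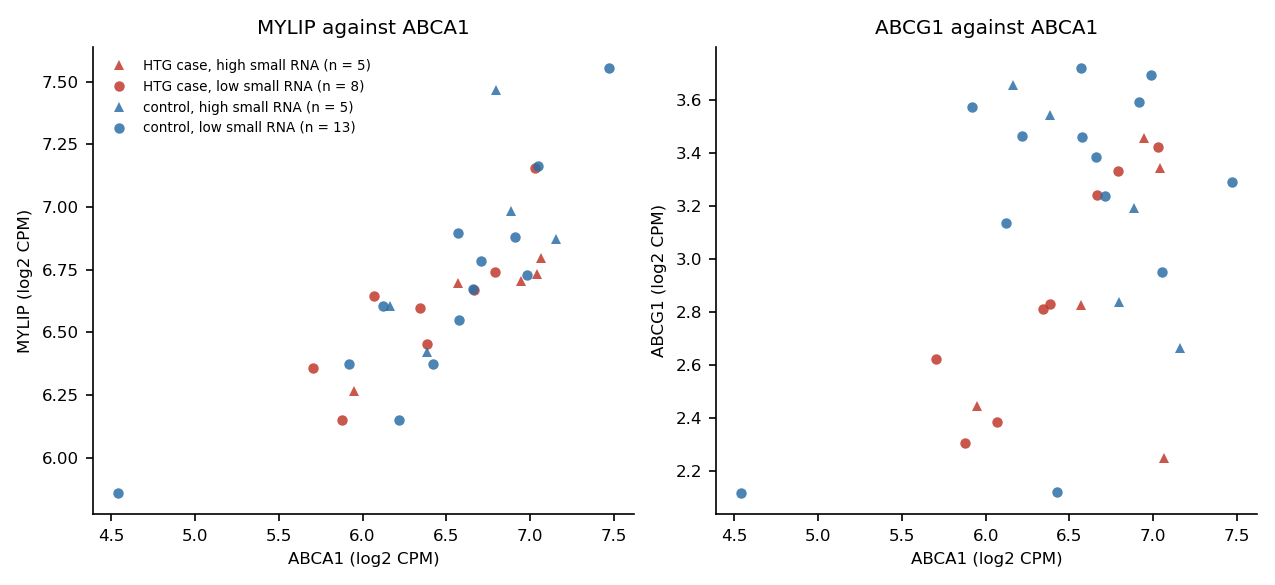
Log2 CPM of MYLIP (left) and of ABCG1 (right) against log2 CPM of ABCA1, with 1 point per dog, HTG cases in red, controls in blue, triangles for high and circles for low small RNA counts. MYLIP follows ABCA1 over its whole range (r = 0.81), whereas ABCG1 is more scattered (r = 0.41 in all dogs and 0.26 without the control at the lower left).

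The other pairs were looser. ABCA1 and ABCG1, the classic pair of LXR-driven exporters, had r = 0.41 (permutation P = 0.020) but rho = 0.23 (permutation P = 0.211), and r was 0.26 without control 09. It was 0.64 in the 13 cases and 0.32 in the 18 controls. On the low side it was 0.61 (permutation P = 0.0026) and on the high side -0.14 (permutation P = 0.685), and after the means of group and split were removed it was 0.44 (permutation P = 0.013). NR1H3 and LPCAT3 had r = 0.49 and rho = 0.44 (permutation P = 0.0046 and 0.013), and r = 0.41 without the 2 farthest dogs. LPCAT3 and NCOR1 had r = 0.38 and rho = 0.39 (permutation P = 0.032 and 0.029), which became 0.35 without the 2 farthest dogs. NR1H2 and ABCA7 ran in opposite directions (r = -0.43, rho = -0.43, permutation P = 0.015 and 0.016), at -0.37 without the 2 farthest dogs. NR1H3 and ABCA7 had r = -0.37 (permutation P = 0.040), rho = -0.26 (permutation P = 0.156) and r = -0.11 without the 2 farthest dogs, so that this value rested on those dogs. The r of ABCA1 was 0.20 with NR1H3 and -0.16 with NR1H2 (permutation P = 0.284 and 0.402), although ABCA1 and NR1H3 had r = 0.67 in the 10 high-side dogs (permutation P = 0.036) and 0.066 in the 21 low-side dogs. The r of ABCG1 was 0.062 with NR1H3 and -0.31 with NR1H2 (permutation P = 0.742 and 0.090), the latter being -0.47 on the low side (permutation P = 0.031) and -0.025 on the high side.

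The genes most alike to 4 members were taken as the 3 with the highest r over the 31 dogs. After MYLIP, ABCA1 was nearest to DOCK5 (r = 0.77) and MAML3 (r = 0.73). MYLIP was nearest, after ABCA1, to PTPN23 (r = 0.72) and RHEB (r = 0.69, but rho = 0.45). ABCG1 was nearest to ZNF169 (r = 0.74), URB2 (r = 0.72) and UBASH3A (r = 0.71), the last a suppressor of T cell receptor signalling. NR1H3 was nearest to MAPKAPK3 (r = 0.76), ALDH9A1 (r = 0.76) and MMP19 (r = 0.72). These partners were picked from all tested genes for their r, which is therefore a description.

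Cell type scores were set against the 8 tested members in 64 relations, 14 of which had an unadjusted permutation P under 0.05. That share was not taken over all genes, so it is not read as a trait of the members. NR1H3 rose with the score of the 6 monocyte markers found (r = 0.60, rho = 0.63, permutation P = 0.00026, adjusted over the 64 P = 0.013), and r was 0.61 without the 2 farthest dogs. It was 0.68 on the low side and 0.53 on the high side. The monocyte score was 0.14 higher in cases (permutation P = 0.296), with summed marker levels of 1959 to 4282 CPM in cases and 1517 to 4780 CPM in controls, and the group difference of NR1H3 with that score as a covariate was 0.17 (P = 0.198). LPCAT3 rose with the neutrophil score (r = 0.55, rho = 0.59, permutation P = 0.0017, adjusted P = 0.027, r = 0.50 without the 2 farthest dogs), and its group difference was -0.0093 with that score as a covariate. NR1H2 fell with the score of eosinophil and basophil markers (r = -0.51, rho = -0.49, permutation P = 0.0034, adjusted P = 0.044, r = -0.51 without the 2 farthest dogs). The r of NCOR1 with the B cell score was -0.48 (permutation P = 0.0060), which did not pass adjustment (adjusted P = 0.064). ABCA1, the pump best known from macrophages, had no such relation with the monocyte score that reached a permutation P of 0.05.

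Within the groups, no member's relation with serum cholesterol passed adjustment. Slopes are log2 changes per doubling of cholesterol, from edgeR. In the 12 cases with a value, 0 of 8 members passed adjustment and 0 had an unadjusted P under 0.05, while 0% of 14659 genes passed and 2.23% had an unadjusted P under 0.05. The median slope of the members was -0.00066, beside 0.0043 over all genes. ABCG1 had the smallest P, with a slope of -0.30 (SE 0.26, 95% interval -0.85 to 0.25, adjusted P = 1.00), and over 21 alternatives it ran from -0.57 to -0.16 with an adjusted P of at least 0.947. NR1H3 was at 0.21 (95% interval -0.35 to 0.76) and ABCA7 at -0.22 (95% interval -0.88 to 0.43). The monocyte score had r = 0.52 with cholesterol in these cases (permutation P = 0.080), and with that score as a covariate both slopes changed sign, to -0.0018 for NR1H3 and 0.19 for ABCA7. ABCA1 was at 0.043 (95% interval -0.55 to 0.63), MYLIP at -0.0080 (95% interval -0.36 to 0.35) and LPCAT3 at -0.073 (95% interval -0.45 to 0.30). The narrowest intervals belonged to NR1H2 (0.086, -0.11 to 0.28) and NCOR1 (0.0067, -0.20 to 0.21).

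For the cases, Pearson's r of log2 CPM with log2 cholesterol ran from -0.34 for ABCG1 to 0.36 for NR1H2. The value for NR1H2 (rho = 0.39, permutation P = 0.247 and 0.212) was 0.76 in 10 dogs, without the 2 farthest from the median cholesterol (permutation P = 0.010). The corresponding edgeR slope was not past adjustment in any alternative, where its adjusted P was at least 0.962. Within the 7 low-side cases r was 0.072 for ABCG1 and 0.49 for NR1H2 (permutation P = 0.876 and 0.274). LPCAT3 was at 0.55 there (permutation P = 0.198), beside -0.055 in the 12 cases.

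In the 15 controls with a value, 0 of 8 members passed and 1 had an unadjusted P under 0.05, with a slope above 0, beside 0% and 6.69% of 14927 genes and 2.87% with a slope above 0. The median slope of the members was 0.13, beside -0.020 over all genes. MYLIP had the smallest P, with a slope of 0.39 (SE 0.18, 95% interval 0.021 to 0.76, P = 0.040, adjusted P = 0.698). Its correlation with cholesterol was r = 0.49 (permutation P = 0.068) and rho = 0.55 (permutation P = 0.036), with adjusted P = 0.722 and 0.706 over all genes. Without control 02 and control 01, the dogs farthest from the median cholesterol, the slope was 0.22 (P = 0.467) and r was 0.19 (permutation P = 0.548). Left out singly, these dogs gave slopes of 0.44 and 0.29. Within the 11 low-side controls r was 0.37 (permutation P = 0.269), and the 4 of the high side were too few. The platelet score also rose with cholesterol in these dogs, though not past the threshold (r = 0.48, permutation P = 0.068), and its part in the slope of MYLIP was not tested.

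ABCA1 had a slope of 0.48 in controls (SE 0.31, 95% interval -0.16 to 1.12, adjusted P = 0.731, r = 0.39). The slope of LPCAT3 was 0.18 (95% interval -0.16 to 0.52), that of NR1H3 0.15 (-0.39 to 0.69) and that of NR1H2 0.11 (-0.084 to 0.31). Without control 02 these were 0.021, 0.012 and 0.070 in the same order, and without control 01 they were 0.17, 0.32 and 0.087. With the monocyte score as a covariate the slope of NR1H3 was 0.020. ABCG1 (-0.012, -0.67 to 0.64), ABCA7 (-0.064, -0.53 to 0.40) and NCOR1 (0.0083, -0.20 to 0.22) were close to 0, with wide intervals for both pumps.

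The difference of the slopes, cases minus controls, was tested in 1 model over 27 dogs. It was past adjustment for 0 members and 0% of 15462 genes, and 0 members had an unadjusted P under 0.05, beside 2.41% of genes. MYLIP again had the smallest P (-0.39, SE 0.24, 95% interval -0.89 to 0.10, P = 0.115, adjusted P = 0.999). The next were LPCAT3 at -0.25 (P = 0.307) and ABCA1 at -0.44 (P = 0.320). In this fit APOE passed the count filter, with a difference of -0.18 and a wide 95% interval of -3.06 to 2.70.

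**Figure D5:**
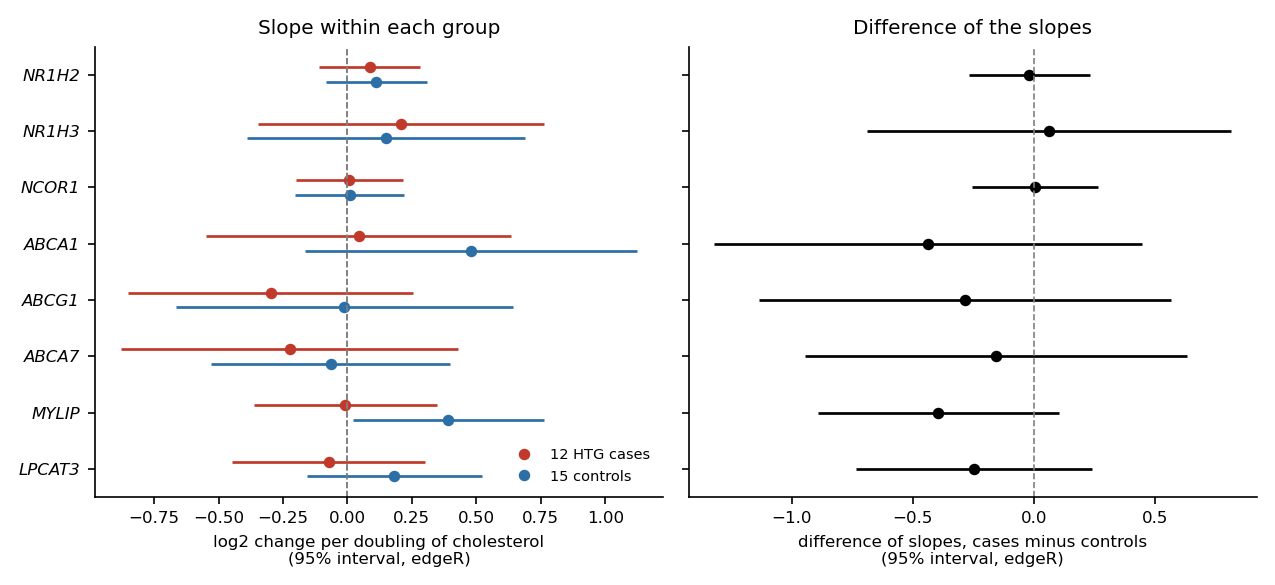
Left, log2 change of the 8 members per doubling of serum cholesterol within 12 HTG cases (red) and 15 controls (blue), and right, the difference of the slopes, each with its 95% interval from edgeR. Of these intervals, only that of MYLIP in controls leaves out 0, and it did not pass adjustment over all genes.

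The remaining traits gave no member past adjustment either. For sex, 0 of 8 members passed, beside 0.122% of all genes, and the smallest P was that of ABCA7, which was 0.26 higher in females on the log2 scale (SE 0.15, P = 0.102). For age, 0 of 8 passed, beside 0% of genes, and the slopes ran from -0.044 to 0.042 per year. For body condition score, 0 of 8 passed, beside 0% of genes, with the smallest P for ABCA1 at -0.18 per point (SE 0.090, 95% interval -0.36 to 0.0068, P = 0.059, adjusted P = 0.951). Between the sides of the split 0 of 8 passed as well, beside 7.57% of all genes, and the smallest P was that of NCOR1, which was 0.089 lower on the high side (P = 0.092).

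The wider pathway was described with 5 lists of 53 further genes, 40 of which were tested. In cases over controls 20 were higher and 20 lower, with a median log2 difference of 0.0026, and none passed adjustment. Of the 40, 4 had an unadjusted P under 0.05, and these were all higher in cases, beside 9.81% of all genes in either direction and 5.04% higher. Among the 9 tested of 14 further LXR target genes, 6 were higher and 3 lower, with a median of 0.25. Over all genes tested 45.5% were higher, with a median of -0.016. Between the sides of the split, 1 of the 9 was higher on the high side and 8 lower (median -0.23, beside -0.015 over all genes). Of the 40 genes, 1 was called there, a partner or corepressor higher on the high side (edgeR, adjusted P = 0.026). Over all genes 7.57% were called.

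SMPDL3A, a phosphodiesterase that LXR induces in macrophages, lay at 5.12, 8.56 and 13.5 CPM in cases and 3.87, 7.10 and 9.36 in controls at the lowest, median and highest, with a log2 difference of 0.35 (SE 0.13, P = 0.011, adjusted P = 0.337). MLXIPL, the carbohydrate response factor ChREBP, was scarce, at medians of 0.88 and 0.64 CPM, with a difference of 0.70 (SE 0.27, P = 0.013, adjusted P = 0.343). SREBF1, the driver of fatty acid synthesis, had medians of 19.0 and 15.7 CPM and a difference of 0.25 (SE 0.10, P = 0.018, adjusted P = 0.372), and it is named because it was the other target below an unadjusted P of 0.05, after its value was seen. The fourth gene was SCARB1, the HDL receptor SR-B1, with medians of 44.1 and 36.6 CPM, 11 of 13 cases above the control median, and a difference of 0.23 (SE 0.086, P = 0.013, adjusted P = 0.343).

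SCARB1 stood in the list of cholesterol efflux, storage and transport, where 8 of 13 tested genes were higher and 5 lower (median 0.097). The next in that list was OSBPL1A, an oxysterol-binding protein of late endosomes, at 0.23 (P = 0.055, adjusted P = 0.526). The 8 coactivators had 2 higher and 6 lower, with the smallest P for NCOA6 (-0.11, adjusted P = 0.647) and NCOA3 (-0.078, adjusted P = 0.652). The 6 tested partners and corepressors had 2 higher and 4 lower, led by RXRA, the obligate partner of LXR (-0.074, adjusted P = 0.879), and GPS2, a subunit of the corepressor complex (-0.033, adjusted P = 0.912). The 4 tested genes of oxysterol synthesis and catabolism had 2 in each direction, with HSD3B7 at 0.36 (adjusted P = 0.658) and CYP27A1, the sterol 27-hydroxylase, at -0.13 (adjusted P = 0.829).

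Against cholesterol in controls, 4 of the 40 tested list genes had an unadjusted P under 0.05, 1 with a slope above 0 and 3 below, beside 6.69% of all genes. Those described here are LCAT, the plasma enzyme that esterifies cholesterol on HDL (-0.56 per doubling, P = 0.028), CYP27A1 (0.51, P = 0.032) and ACACA (-0.27, P = 0.049). Each of these had an adjusted P of 0.698. In cases 0 of 41 tested list genes had an unadjusted P under 0.05, and the smallest P-values were those of LPL (-1.17, P = 0.090), APOC1 (0.82, P = 0.132), NPC1 and OSBPL1A. For the difference of the slopes 0 of 41 did, with ACACA (0.33, P = 0.076), SCD (-0.40, P = 0.080), CLU (1.38, P = 0.126) and SMPDL3A (0.49, P = 0.138) at the smallest P-values.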

How the data were processed

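RNA from whole blood collected in Tempus tubes was made into rRNA-depleted, stranded, paired-end libraries. Per the study's methods, the authors trimmed reads with Trimmomatic, aligned them with HISAT2 to Dog10K_Boxer_Tasha within the CHURP pipelines, and counted only pairs whose mates both mapped. The deposited values are raw counts per Ensembl gene, whole numbers that are not normalized. The counting tool, its strand setting and the annotation release are not given in the sources used here, so overlapping genes could share reads.

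Counts were normalized by TMM and tested with edgeR 4.0.16 (glmQLFit and glmQLFTest, R 4.3.3) after filterByExpr, fitted on all genes, with Benjamini-Hochberg adjustment and a threshold of 0.05. CPM used TMM library sizes, and log2 CPM a prior count of 2. DESeq2 1.42.0 and limma 3.58.1 (voom) were alternatives. Correlations were tested with 100000 permutations (numpy 2.4.6, scipy 1.17.1), and P-values were two-sided. The fits were tested on simulated data. Intervals and floors cover counting error or dog-to-dog spread only. The study's batch covariate was left out, because no source used here names the pilot dogs. Among 231 pairs of dogs of 1 group, the smallest mean chi-square per gene was 24.8, so no library was treated as a repeat. Cholesterol, triglycerides, age and body condition score came from the study's text.

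Members and lists were chosen with earlier results of these data known. The rule for naming took all members, the 2 genes with the smallest P of each pathway list between groups, the 4 with the smallest P over the lists in each cholesterol comparison, and the 3 genes most correlated with ABCA1, ABCG1, MYLIP and NR1H3. One gene that this rule takes is not reported here. The other marker scores differed between cases and controls by 0.24 for B cells, 0.31 for NK and cytotoxic cells, 0.71 for reticulocytes and -0.098 for eosinophils and basophils (permutation P = 0.117, 0.261, 0.097 and 0.537). Of 63 markers listed, 55 were found in the table and 54 tested.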

Additional observations from a re-analysis of the deposited data

Results flagged for a closer look

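ABCA7 was singled out because the HTG effect differed between the dogs with high and with low small RNA counts. The log2 difference of cases over controls was higher on the high side by 1.13 (edgeR interaction, P = 0.00035), with cases above controls on the high side and below them on the low side. It did not pass adjustment over 13918 genes (adjusted P = 0.805), and it was picked after the values were seen. The cause was not tested.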

How the results depend on the processing

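No member passed adjustment in any comparison under any alternative tried, and the alternatives without control 09 and without case 07 were chosen after seeing the data, as was the interaction with the split. Over all genes, the count called between cases and controls was 5, ran from 0 to 84 over the alternatives, and was 84 with DESeq2, and in the cholesterol fit of controls it was 2 without a filter on low counts. Low counts limit APOE and CH25H, and the number of dogs limits the slopes.

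Cases and controls share 13 dog numbers, which in the labels only name dogs. With the number as a block, 0 members and 0 genes were called, ABCA1 changed sign to 0.022, and ABCG1 was at -0.22 (P = 0.321). Same-numbered dogs did not deviate together as pairs: the correlation of their deviations ran from -0.44 to 0.26 with a median of -0.015, and 1 of 13 cases correlated best with the control of its number. Within a group no dogs share a number, so the slopes have no paired fit.

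These values changed sign, all at or under 0.63 in size and none called, and the cause was not tested. Between cases and controls, ABCA1 was at 0.0021 with body condition score, 0.019 with the neutrophil score and 0.052 in the 10 high-side dogs. ABCA7 was at 0.046 with cholesterol, 0.087 with the platelet score and 0.63 in the high-side dogs. NR1H3 was at -0.065 in the high-side dogs, LPCAT3 at -0.0093 with the neutrophil score, NCOR1 at 0.00021 with the platelet score and 0.0096 in the 21 low-side dogs, and NR1H2 at 0.042 in the latter.

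Against cholesterol in cases, LPCAT3 was at 0.041 with limma-voom and ABCA1 at -0.0078 per rank of cholesterol. With sex as a covariate, NR1H3 was at -0.13, MYLIP at 0.022 and NCOR1 at -0.016. With triglycerides, NR1H2 was at -0.038, NR1H3 at -0.018 and MYLIP at 0.17. NCOR1 was at -0.0057 with the split. With the monocyte score, NR1H3 was at -0.0018, ABCA7 at 0.19 and NCOR1 at -0.048. Without the 2 farthest dogs, ABCA1 was at -0.25 and NCOR1 at -0.049. With each case left out in turn, ABCA1 ran from -0.30 to 0.25, LPCAT3 from -0.31 to 0.075, MYLIP from -0.15 to 0.14 and NCOR1 from -0.030 to 0.040.

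In controls, ABCG1 was at 0.11 with limma-voom, 0.0029 per rank, 0.26 with triglycerides, 0.0054 with the monocyte score and 0.29 without the 2 farthest dogs. NCOR1 was at -0.0071 without a filter, -0.0013 per rank, -0.0024 with sex, -0.035 with triglycerides and -0.14 without the 2 farthest dogs, where NR1H2 was at -0.028 and LPCAT3 at -0.13. With the split, NR1H3 was at -0.00063 and ABCA7 at 0.11. With each control left out, ABCA7 ran from -0.16 to 0.070, ABCG1 from -0.14 to 0.074, NCOR1 from -0.051 to 0.033, and MYLIP from 0.29 to 0.45 without a change of sign.

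For the difference of the slopes, NCOR1 was at -9.9e-05 with limma-voom and -0.059 with the split. With sex, NR1H3 was at -0.25, APOE at 0.52, ABCA7 at 0.28 and NCOR1 at -0.015. The age slope of ABCA7 was 0.0037 with the split. Of the 612 alternative values for single members, 70 changed sign.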
